A study of Mus musculus with 16 samples.

Results

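The 10 genes described here, Id1, Id2, Id3, Id4, Hes1, Hes5, Notch1, Jag1, Axin2 and Lingo1, were chosen by name from 32207 genes, because each is known to hold back, or to belong to a pathway that holds back, the maturation of oligodendrocytes. They were followed in RNA of O4+ cells from brains of OF-1 mice at postnatal day 16. Sorting was magnetic, with antibodies against O4, a surface antigen that appears on late precursors and stays on maturing oligodendrocytes. The exposed groups were male BPA and female BPA. Their mothers drank water with bisphenol A (BPA), a plasticizer with estrogenic activity, from gestational day 7 through lactation, so the pups were exposed in the womb and through milk. The dose is given as an estimated 40 µg/kg/day from 250 µg/mL in the water, figures that were not reconciled here. The unexposed groups were male control and female control. Each group held 4 libraries. All 16 came from the same strain, age and type of sort, and no transgene or deletion is labelled for any of them. No litter or batch is given, and since the mothers were dosed, pups of a litter share an exposure. P-values therefore measure the spread between these libraries and may be too small if littermates are among them.

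Notch1 is a receptor on the precursor's surface. When a ligand such as Jag1 on a neighbouring cell or axon binds it, its inner part is cut free, joins the DNA-binding protein RBPJ and switches on Hes1 and Hes5, which repress genes that promote differentiation. BMPs act through SMAD proteins to raise Id1 to Id4, small proteins that bind bHLH factors such as those of the Olig and E-protein families and keep them from DNA. Wnt signals stabilise beta-catenin, which with TCF factors turns on Axin2, itself part of the complex that destroys beta-catenin. Lingo1 is a leucine-rich-repeat membrane protein, part of a receptor complex with the Nogo receptor, and blocking it speeds myelination.

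The upstream windows of Hes5, Id2 and Id4 are shown because they hold the letters by which the Notch and BMP pathways are known to act. Each line gives the 250 bases before the start site from RefSeq on build GRCm38.p6, 5′ to 3′ on the strand of the gene. The counts themselves were made on mm39, so these positions serve only to place the windows. Hes5 lies at chr4:154960673-154960922 on the plus strand, Id2 at chr12:25096093-25096342 on the minus strand and Id4 at chr13:48260866-48261115 on the plus strand. Capitals mark GTGGGAA (bound by RBPJ, or TTCCCAC where it lies on the other strand) and the palindrome GGCGCC (bound by BMP-activated SMADs), and the marked stretches do not overlap.
Hes5: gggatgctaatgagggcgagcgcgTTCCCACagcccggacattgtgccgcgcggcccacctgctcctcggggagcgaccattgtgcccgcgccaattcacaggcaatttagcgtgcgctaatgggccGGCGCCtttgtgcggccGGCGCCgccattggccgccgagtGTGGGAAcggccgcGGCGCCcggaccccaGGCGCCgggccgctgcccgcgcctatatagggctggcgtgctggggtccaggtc
Id2: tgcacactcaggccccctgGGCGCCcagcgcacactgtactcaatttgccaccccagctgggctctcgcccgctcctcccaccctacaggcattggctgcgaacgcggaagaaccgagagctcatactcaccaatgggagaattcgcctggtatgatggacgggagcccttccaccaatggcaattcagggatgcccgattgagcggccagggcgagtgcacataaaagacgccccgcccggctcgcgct
Id4: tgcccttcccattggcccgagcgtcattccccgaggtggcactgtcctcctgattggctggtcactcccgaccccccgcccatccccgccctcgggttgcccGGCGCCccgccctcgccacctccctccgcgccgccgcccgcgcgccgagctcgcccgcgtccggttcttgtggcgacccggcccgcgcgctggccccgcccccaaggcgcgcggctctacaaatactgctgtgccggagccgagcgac
In the Hes5 window GTGGGAA stood at bases 83 to 77 before the start on the strand of the gene and at bases 226 to 220 on the other strand, and GGCGCC stood at 4 places between bases 123 and 49. Id2 had GGCGCC once, at bases 231 to 226, and Id4 once, at bases 148 to 143. A window was held for 8 of the 10 genes, with 2 for Lingo1. Id1 and Hes1 had no window, so they were not searched for these letters. On either strand, GTGGGAA was in 1 of those 9 windows and in 5.42% of 32851 windows of all genes. GGCGCC was in 3 of the 9 windows and in 9.59% of all. CTTTGAT, the letters bound by TCF factors, was in 0 of the 9 windows and in 3.21% of all. These matches describe the letters alone.

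Levels between genes were set side by side as the authors' normalised counts per kb of median transcript length. This scale rests on the transcript length used for each gene, which was not checked against the transcripts expressed here. Notch1 was the highest of the 10, at 8830 ± 978 per kb (mean ± SD, n = 16), and it was above Id2 in 16 of 16 libraries. Id2, which binds E-proteins as its relatives do, averaged 1475 ± 684 per kb and was above Id3 in 15 of 16 libraries. Id3 averaged 1151 ± 548 per kb and stood above Axin2, at 586 ± 86.2 per kb, in all 16. Below them lay Hes5 at 367 ± 177 per kb, Lingo1 at 283 ± 53.9 per kb and Hes1 at 282 ± 94.4 per kb. These neighbours did not separate, since Hes5 was above Lingo1 in 11 of 16 libraries and Lingo1 above Hes1 in 9 of 16. Id1 averaged 245 ± 115 per kb, Id4 205 ± 116 per kb and Jag1 106 ± 15.9 per kb. On this scale alone, Jag1, the ligand, was the lowest and Notch1, its receptor, the highest. As counts relative to a scaled library total (CPM), with no division by length, Notch1 averaged 105 CPM and Id2 54.7 CPM. The gap between them was wider per kb, so the scale used a shorter length for Notch1 than for Id2. The place of Notch1 among the 10 depends on that unchecked length, so nothing is concluded from it about receptor and ligand.

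Total counts ran from 23603816 to 42575326 per library, so that 3 counts, the limit a count of 0 allows, came to at most 0.127 CPM (the counts of a gene relative to a scaled library total). The rarest of the 10 genes, Hes1, had 95 to 375 counts in a library. All 10 passed the filter on low counts. The sort was rich in oligodendrocyte RNA: the 20 markers of myelinating oligodendrocytes summed to between 126784 and 177496 CPM, and the 15 markers of precursors to between 6573 and 10250 CPM. Xist and Ddx3y matched the labelled sex in 16 of 16 libraries, but female BPA 1 had 1.33 CPM of the Y-linked Ddx3y, against at most 0.106 CPM in the other 7 females and at least 94.0 CPM in the 8 males. One library stood apart. Within groups, pairs of libraries differed by a chi-square per gene of 16.5 to 33.2, except the pairs with male BPA 2, which gave 89.0, 107 and 133. That library had 9674 CPM of 15 astrocyte markers, against 1446 to 3780 CPM in the other 15 libraries, and all 15 of those markers passed the filter. Its 15 endothelial markers summed to 442 CPM, against 206 to 359 CPM elsewhere, and its 12 mural and fibroblast markers, of which Kcnj8 did not pass the filter, to 184 CPM, against 32.9 to 101 CPM elsewhere. Its myelinating markers, at 126784 CPM, were the lowest of the 16. The results below that rest on male BPA 2 are therefore given with and without it. In such bulk RNA, more cells of a type and more RNA per cell cannot be told apart.

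**Figure D1:**
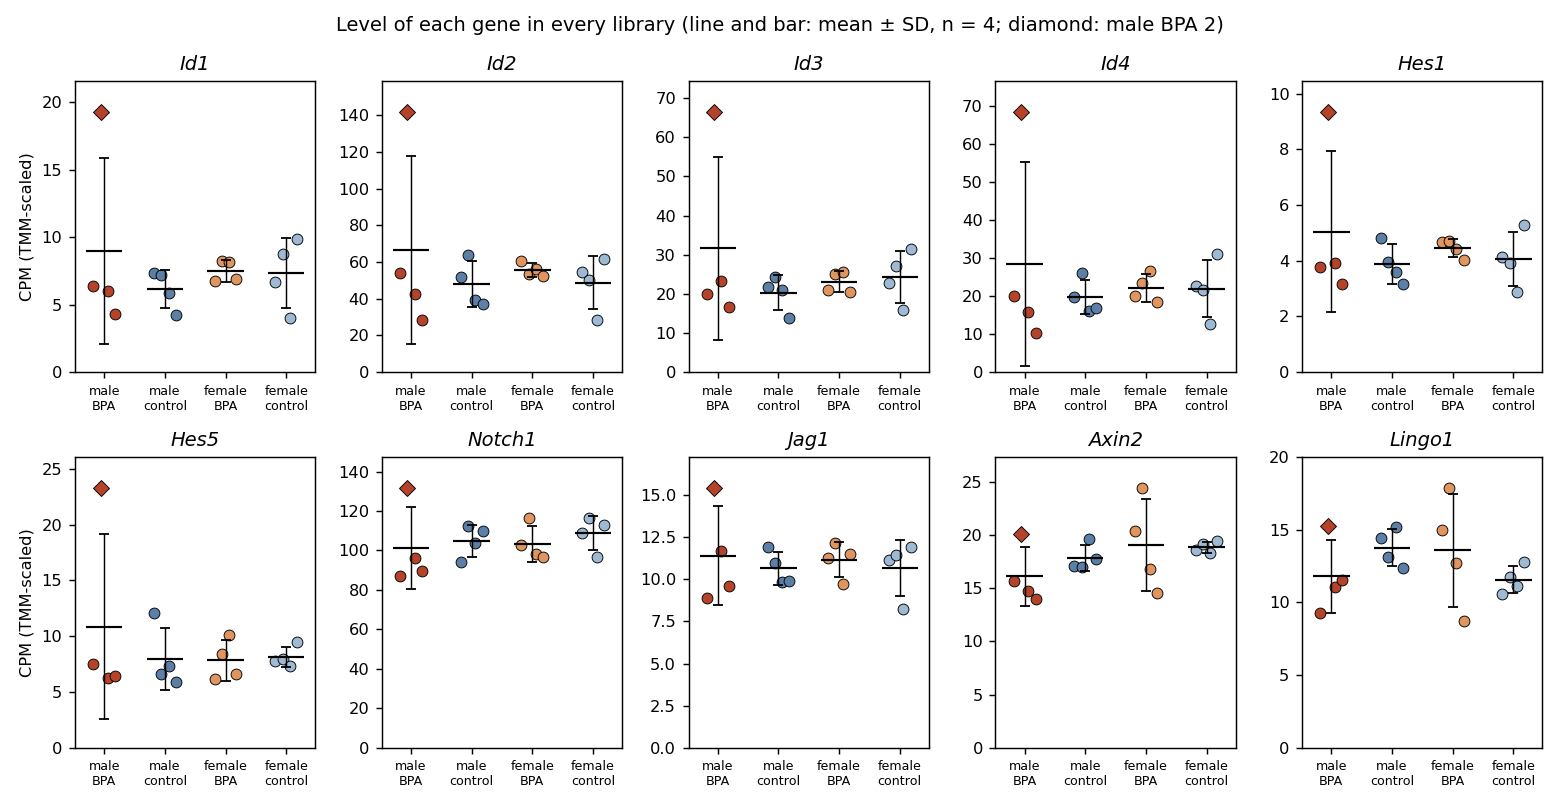
CPM of each of the 10 genes (vertical axis, from 0) in every library of the 4 groups (horizontal axis), each point 1 library, lines the mean and bars the SD (n = 4). The diamond, male BPA 2, lies above the other 15 libraries in 8 of the 10 panels, and only in those of Axin2 and Lingo1 does a female BPA library lie higher. The share of all genes that are highest in male BPA 2 was not counted, so this is not read as particular to the 10 genes.

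Notch1, the receptor, had 87.0, 132, 96.3 and 89.6 CPM in male BPA libraries, against 94.1, 112, 104 and 110 CPM in male controls. In females it had 103, 116, 98.1 and 96.5 CPM with BPA, against 109, 117, 96.9 and 113 CPM in controls. The groups overlapped in both sexes, and 3 of the 4 BPA males lay below 3 of the 4 male controls while the remaining one, male BPA 2, was the highest of all 16. The log2 fold change was -0.07 ± 0.11 in males (SE, 95% interval -0.31 to 0.16, limma-voom adjusted p = 0.914) and -0.07 ± 0.11 in females (-0.31 to 0.17, adjusted p = 0.999). In males it was -0.21 ± 0.08 without male BPA 2, with an unadjusted p of 0.0239 and an adjusted p of 0.378.

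Jag1, the Notch ligand, had 8.89, 15.4, 11.7 and 9.63 CPM in male BPA libraries, against 11.9, 10.96, 9.86 and 9.92 CPM in male controls. Its female values were 11.3, 12.2, 9.74 and 11.5 CPM with BPA, against 11.1, 11.5, 8.23 and 11.9 CPM in controls. Both sexes overlapped, and apart from male BPA 2 every library lay between 8.23 and 12.2 CPM. The log2 fold change was 0.08 ± 0.17 in males (adjusted p = 0.942) and 0.06 ± 0.16 in females (adjusted p = 0.999), and -0.10 ± 0.14 in males without male BPA 2.

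Hes1, a repressor switched on by Notch, had 3.78, 9.33, 3.92 and 3.15 CPM in male BPA libraries, against 4.83, 3.94, 3.59 and 3.16 CPM in male controls. Females had 4.66, 4.71, 4.42 and 4.02 CPM with BPA, against 4.13, 3.93, 2.89 and 5.28 CPM in controls. The exposed females lay inside the range of their controls. Hes5, the other Notch-driven repressor, had 7.47, 23.3, 6.23 and 6.46 CPM in male BPA libraries, against 12.05, 6.58, 7.37 and 5.87 CPM in male controls. Its female values were 6.13, 8.39, 10.1 and 6.65 CPM with BPA, against 7.77, 7.94, 7.34 and 9.45 CPM in controls. For both genes the male BPA group held 1 high library, male BPA 2, at 2.37 times the median of the other 15 for Hes1 and 3.16 times for Hes5, while the other 3 lay within or just below the range of the controls. The log2 fold change of Hes1 was 0.28 ± 0.29 in males and 0.17 ± 0.28 in females. That of Hes5 was 0.29 ± 0.37 in males and -0.05 ± 0.37 in females. The male values were -0.10 ± 0.20 for Hes1 and -0.21 ± 0.23 for Hes5 once male BPA 2 was left out, so the sign of both rested on that library.

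The 4 Id genes, inhibitors of bHLH factors and known targets of BMP, followed the same course. Id1 had 6.39, 19.3, 6.03 and 4.29 CPM in male BPA libraries, against 7.33, 7.21, 5.85 and 4.25 CPM in male controls. In females Id1 had 6.74, 8.21, 8.19 and 6.90 CPM with BPA, against 6.65, 8.75, 4.03 and 9.90 CPM in controls. The female groups overlapped fully, with the controls both lowest and highest. Id2 had 53.8, 142, 42.4 and 28.2 CPM in male BPA libraries, against 51.9, 63.7, 39.1 and 37.3 CPM in male controls. In females Id2 had 60.7, 53.4, 56.2 and 52.4 CPM with BPA, against 54.4, 50.2, 28.2 and 61.6 CPM in controls. Exposed females spread by 3.72 CPM (SD) around 55.7 CPM, against 14.4 CPM around 48.6 CPM in female controls, of which 1 library was low.

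Id3 had 19.9, 66.4, 23.4 and 16.7 CPM in male BPA libraries, against 21.8, 24.3, 21.1 and 13.9 CPM in male controls. In females Id3 had 21.0, 25.0, 25.7 and 20.5 CPM with BPA, against 22.7, 27.2, 15.9 and 31.5 CPM in controls. Male BPA 2 again stood alone, and the exposed females lay within the range of their controls. Id4, which is also known from neural precursors and astrocytes, had 19.9, 68.4, 15.7 and 10.2 CPM in male BPA libraries, against 19.9, 25.9, 16.2 and 16.9 CPM in male controls. In females Id4 had 20.1, 23.3, 26.7 and 18.4 CPM with BPA, against 22.6, 21.6, 12.5 and 31.0 CPM in controls. The male BPA group thus held both the highest and the lowest of the 16 libraries for Id4.

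The fitted differences of the Id genes had wide errors. In males the log2 fold change was 0.37 ± 0.41 for Id1, 0.24 ± 0.37 for Id2, 0.48 ± 0.37 for Id3 and 0.22 ± 0.46 for Id4, with adjusted p of 0.877, 0.915, 0.812 and 0.937. In females it was 0.12 ± 0.38 for Id1, 0.26 ± 0.37 for Id2, -0.03 ± 0.35 for Id3 and 0.09 ± 0.44 for Id4, each with an adjusted p of 0.999. The 95% interval for Id4 in males ran from -0.75 to 1.19, so changes of either sign remained within it. Leaving out male BPA 2 gave male values of -0.14 ± 0.30 for Id1, -0.22 ± 0.27 for Id2, 0.00 ± 0.24 for Id3 and -0.39 ± 0.31 for Id4. Beside these stand the astrocyte marker sums of the exposed males, from 1446 to 9674 CPM, against 1868 to 3444 CPM in male controls. Their part in these values was not tested.

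Axin2, the Wnt target and brake on beta-catenin, had 15.7, 20.1, 14.7 and 13.9 CPM in male BPA libraries, against 17.1, 16.95, 19.6 and 17.8 CPM in male controls. In females it had 20.4, 24.4, 16.8 and 14.6 CPM with BPA, against 18.6, 19.1, 18.3 and 19.4 CPM in controls. In males all exposed libraries but male BPA 2 were below the controls. In females the exposed libraries lay on both sides of controls that spread by only 0.523 CPM (SD, n = 4), against 4.32 CPM with BPA. The log2 fold change was -0.15 ± 0.14 in males (95% interval -0.44 to 0.14, adjusted p = 0.846) and 0.00 ± 0.13 in females (adjusted p = 0.999). The male value was -0.27 ± 0.13 without male BPA 2 (unadjusted p = 0.0582, adjusted p = 0.462).

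Lingo1 had 9.30, 15.3, 11.1 and 11.5 CPM in male BPA libraries, against 14.4, 13.1, 15.2 and 12.4 CPM in male controls. In females it had 14.98, 17.9, 12.7 and 8.68 CPM with BPA, against 10.6, 11.8, 11.1 and 12.8 CPM in controls. The highest and the lowest of all 16 libraries were both exposed females. The log2 fold change was -0.23 ± 0.18 in males (95% interval -0.61 to 0.15, adjusted p = 0.813) and 0.22 ± 0.17 in females (-0.15 to 0.59, adjusted p = 0.999). With male BPA 2 left out, it was -0.38 ± 0.18 in males (unadjusted p = 0.0503, adjusted p = 0.451). Beside Axin2 and Lingo1, the summed precursor markers did not overlap in males, at 6606 to 7471 CPM with BPA, against 7867 to 9278 CPM in controls. In females the sums were 6573 to 10250 CPM with BPA, against 7297 to 8374 CPM in controls. Their part in the values of Axin2 and Lingo1 was not tested. The highest of these markers were Gpr17, Olig1 and Tnr, at means of 2666, 1952 and 1399 CPM over the 16 libraries, so the sums follow them most. Gpr17 and Neu4 are also on the list of markers of committed and newly formed oligodendrocytes.

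Counted together, 0 of the 10 genes passed an adjusted p of 0.05 for BPA against control by limma-voom, and 0 had an unadjusted p under 0.05, in males, in females or as the mean over both sexes. Among all 16339 genes tested, 0.00612% were called in males, 0% in females and 0.0184% over both sexes, while 7.96%, 4.55% and 7.69% had an unadjusted p under 0.05. At such shares a count of 0 in 10 is no result about these genes. The signs that follow are not independent, since several of the 10 genes varied together, as given below. In males 7 of the 10 genes had positive and 3 negative log2 fold changes, with a median of 0.23, against 0.01 over all genes tested. Without male BPA 2, 1 was positive and 9 negative, with a median of -0.21, against -0.01 over all genes. In that fit 0 of the 10 were called, as were 0% of 16460 genes, and 1 of the 10, Notch1, had an unadjusted p under 0.05, where 11.1% of genes did. In females 7 were positive and 3 negative, with a median of 0.08, against 0.00 over all genes, with or without that library. Without it 0 of the 10 had an unadjusted p under 0.05 in females, where 5.75% of genes did. As the mean over both sexes 7 were positive and 3 negative with a median of 0.14, against 0.00 over all genes. Without male BPA 2 the counts were 2 and 8 with a median of -0.05, against -0.01 over all genes. In that last fit 0 of the 10 were called, against 0.0243% of genes, and 1 had an unadjusted p under 0.05, against 8.33% of genes. It was again Notch1, at -0.14 ± 0.06 (unadjusted p = 0.0247, adjusted p = 0.513).

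With 4 libraries against 4, the exposed and control ranges of each of the 10 genes overlapped in males and in females. Across the transcriptome, every exposed male lay below every control male for 2.83% of genes and above for 1.62%, and in females for 2.06% and 1.27%. Without male BPA 2, 2 of the 10, Axin2 and Lingo1, had all exposed males below all control males, as did 6.66% of all genes, and 0 had all of them above, as did 4.9%. Taking both sexes together, 8 against 8 libraries, 0 of the 10 separated, while 0.0551% of genes lay lower and 0.0306% higher in every exposed library.

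**Figure D2:**
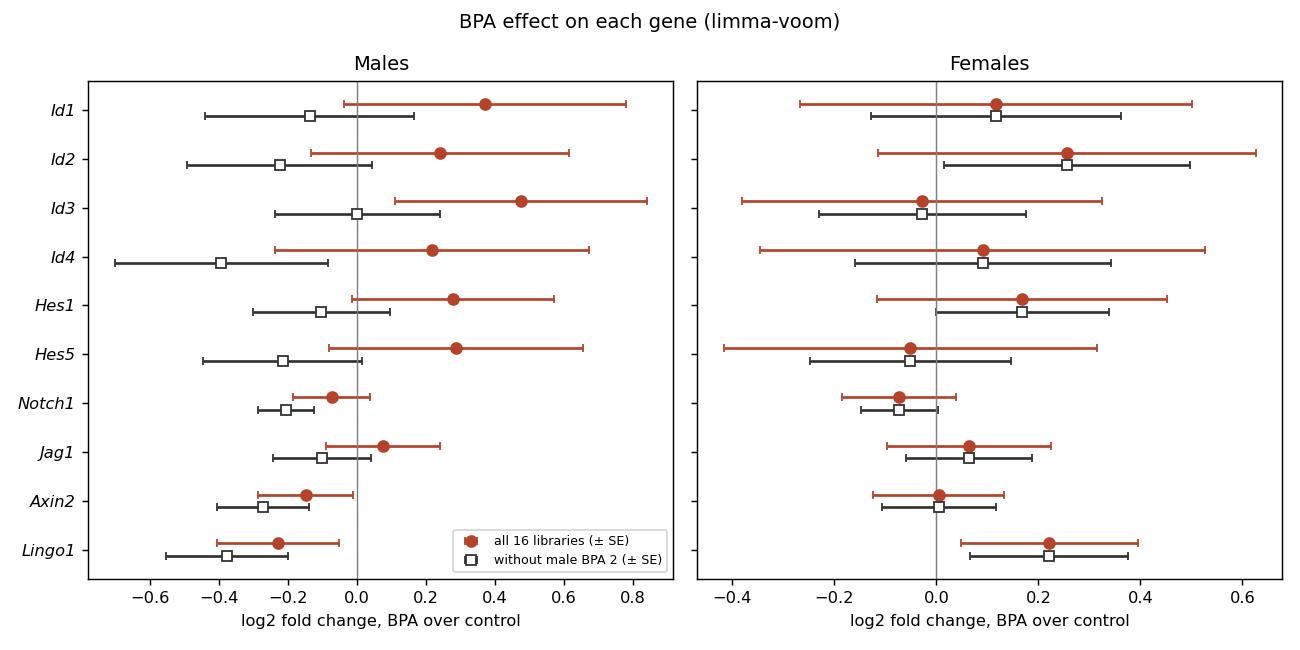
Log2 fold change of each gene, BPA over control (horizontal axis), in males (left) and females (right), with bars of ± SE from limma-voom. Filled circles use 16 libraries and open squares leave out male BPA 2, and Id4 in males sits at 0.22 with that library and at -0.39 without it, while its female value is 0.09 in both.

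Whether the exposure acted differently in the sexes was tested as the female effect minus the male effect. For 0 of the 10 genes did this difference pass, as for 0% of all genes tested, and 0 of the 10 had an unadjusted p under 0.05, against 4.72% of all genes. Lingo1 came closest, with a difference of 0.45 ± 0.25 on the log2 scale (unadjusted p = 0.0886, adjusted p = 0.999). Leaving out male BPA 2 made it 0.60 ± 0.23 (unadjusted p = 0.0225, adjusted p = 0.495), where 9.29% of genes had an unadjusted p under 0.05. The fitted Lingo1 changes, negative in males and positive in females, therefore did not separate beyond the error once all genes were counted. Exposed females held both the highest and the lowest Lingo1 value, 17.9 CPM in female BPA 2 and 8.68 CPM in female BPA 4. For Notch1 the difference had a 95% interval from -0.34 to 0.34, and without male BPA 2 it was 0.13 ± 0.11 (adjusted p = 0.726), with -0.07 in females and -0.21 in males. For Id4 the interval was far wider, from -1.47 to 1.22, and its difference was -0.13 with male BPA 2 and 0.48 ± 0.40 without it (adjusted p = 0.721).

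Females against males, as the mean over both exposures, gave log2 fold changes between -0.11 for Hes5 and 0.16 for Axin2. By limma-voom 0 of the 10 were called, against 0.0673% of all genes, and 0 had an unadjusted p under 0.05, against 4.35% of all genes. Without male BPA 2 all 10 log2 fold changes were positive, with a median of 0.20, against 0.00 over all genes. Several of the 10 genes varied together, as given below, so these signs are not independent. In that fit 0 of the 10 were called, against 0.0851% of genes, and 1, Axin2, had an unadjusted p under 0.05 (0.22 ± 0.09, unadjusted p = 0.0236, adjusted p = 0.488), where 9.74% of genes did. The largest of these was Id4 at 0.37, and it was 0.06 ± 0.32 with male BPA 2 included. Astrocyte marker sums were 1859 to 3780 CPM in females and, without that library, 1446 to 3444 CPM in males, and their part in these values was not tested.

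Once each group's mean was subtracted, the genes fell into sets that varied together across the 16 libraries. The Pearson r of log2 CPM was 0.98 between Id1 and Id3 and 0.97 between Id2 and Id4. Hes1 followed the 4 Id genes with r between 0.93 and 0.95. Over the 15 libraries other than male BPA 2 these were 0.95 for Id1 and Id3, 0.92 for Id2 and Id4, and 0.78 to 0.88 for Hes1 with the Id genes. Hes5 kept to them less closely, with r of 0.75 to 0.84 over 16 libraries and 0.29 to 0.54 over 15. Axin2 and Lingo1 made a pair of their own, at 0.86 over 16 libraries and 0.82 over 15. Notch1 and Hes5, receptor and target, had r of 0.54 over 16 libraries and -0.31 over 15. All these values describe libraries of the same type of sort that differ in depth, and no test was made on them.

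**Figure D3:**
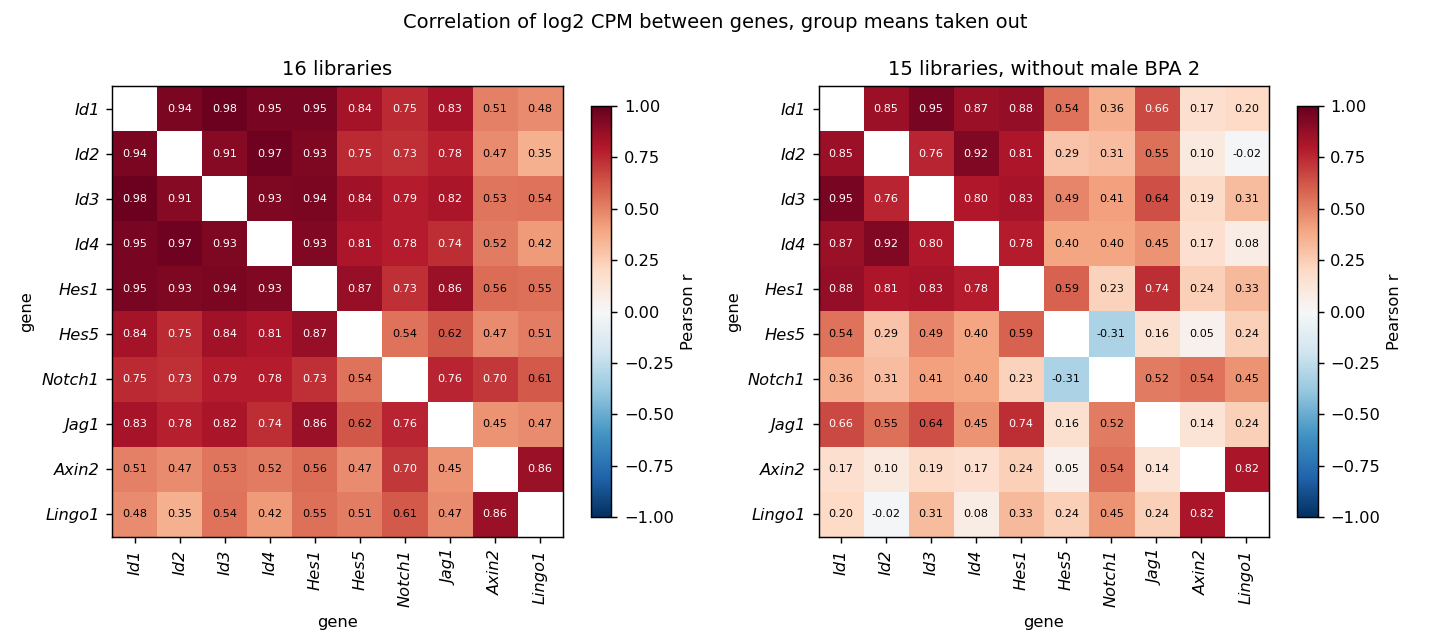
Pearson r of log2 CPM between each 2 of the 10 genes (both axes) with group means taken out, over 16 libraries (left) and over 15 without male BPA 2 (right), colour running from -1 in blue to 1 in red. The block of Id1 to Id4 and Hes1 stays dark red on the right, as does the pair of Axin2 and Lingo1 at 0.82, while Hes5 and Notch1 turn to -0.31.

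Among 8716 genes that averaged 10 CPM or more, those most like each of the 10 were looked up by the same r over 16 libraries. For Id4 it was Sox9, at 0.99 (0.98 without male BPA 2), then Lhx2 at 0.99, and Sox9 is also on the astrocyte list. Id1, itself under 10 CPM on average, ran with Id3 at 0.98 and Nr2f1 at 0.97. Id2 ran with Igsf1 at 0.98 and Eva1a at 0.97, and Id3 with Nr2f1 and Tmem100, both at 0.95. Hes1 ran with Pou3f2 and Laptm4a, both at 0.97, and Hes5 with Chl1 at 0.94 and Bmp7 at 0.93. The likeness of Hes5 and Bmp7 was 0.77 without male BPA 2. Notch1 ran with N4bp2 at 0.93 and Lman1 at 0.92, and Jag1 with Lypla1 at 0.95 and Vim at 0.94. Axin2 ran with Lrfn4 at 0.97 and Xylt1 at 0.96, and Lingo1 with Sdc3 at 0.93. Without male BPA 2 the r was 0.97 for Axin2 and Lrfn4 and 0.90 for Lingo1 and Sdc3.

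Each of the 10 genes was set against the mean log2 CPM of 10 lists of cell type markers, with group means taken out and a permutation test within groups. Of 100 such pairs, 10 passed a Benjamini-Hochberg adjusted p of 0.05 by Pearson's r, and 1 still passed without the 2 libraries farthest from the median of the list. That pair was Id4 and the astrocyte list, with r = 0.98 and rho = 0.97 (permutation p = 2e-05, adjusted p = 0.0020). Without male BPA 2 and male BPA 4 it was r = 0.93 and rho = 0.97 (permutation, adjusted p = 0.0150, n = 14). Id2 and the astrocyte list gave r = 0.96 (permutation p = 0.00021, adjusted p = 0.0105) and rho = 0.93 (adjusted p = 0.0203), and without the same 2 libraries r = 0.88 (adjusted p = 0.0700). With that list Id1 had r = 0.91 (permutation p = 0.00176, adjusted p = 0.0352) and rho = 0.80 (adjusted p = 0.0534), and r = 0.72 without those libraries (adjusted p = 0.419). Hes1 had r = 0.91 (permutation p = 0.00244, adjusted p = 0.0407) and rho = 0.77 (adjusted p = 0.0585), and r = 0.68 without them (adjusted p = 0.419). Id3 passed by rank and not by r, at rho = 0.83 (permutation p = 0.00112, adjusted p = 0.0280) and r = 0.88 (adjusted p = 0.0531). Hes5 had r = 0.83 and rho = 0.67 (adjusted p = 0.0571 and 0.0742). For Notch1 the r was 0.70 (adjusted p = 0.149) and 0.14 without the 2 libraries.

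Axin2 and Lingo1 went with the precursor list, at r = 0.79 for Axin2 (permutation p = 0.00361, adjusted p = 0.0451) with rho = 0.69 (adjusted p = 0.0742), and r = 0.82 for Lingo1 (permutation p = 0.00124, adjusted p = 0.0310) with rho = 0.80 (adjusted p = 0.0203). Without female BPA 2 and female BPA 4, which had the highest and the lowest precursor marker sums, r was 0.47 for Axin2 (adjusted p = 0.419) and 0.57 for Lingo1 (adjusted p = 0.225). Axin2 went against the myelinating list, with r = -0.88 (permutation p = 0.00096, adjusted p = 0.0310) and rho = -0.84 (adjusted p = 0.0686), and r = -0.76 without male BPA 2 and female BPA 2 (adjusted p = 0.399). The other passing pairs were Id2 with mural and fibroblast markers (r = 0.80, rho = 0.74, permutation p = 0.00307, adjusted p = 0.0439), Id4 with endothelial markers (r = 0.83, rho = 0.71, permutation p = 0.00495, adjusted p = 0.0495) and Hes1 with endothelial markers (r = 0.85, rho = 0.66, permutation p = 0.00491, adjusted p = 0.0495). For Id2 the r was 0.43 without male BPA 2 and female control 3 (adjusted p = 0.560). Without male BPA 2 and female control 4 it was 0.53 for Id4 (adjusted p = 0.555) and 0.54 for Hes1 (adjusted p = 0.560). All p-values of these pairs come from permutation. Without the 2 libraries 14 were left, and none of the pairs in this paragraph was still called.

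**Figure D4:**
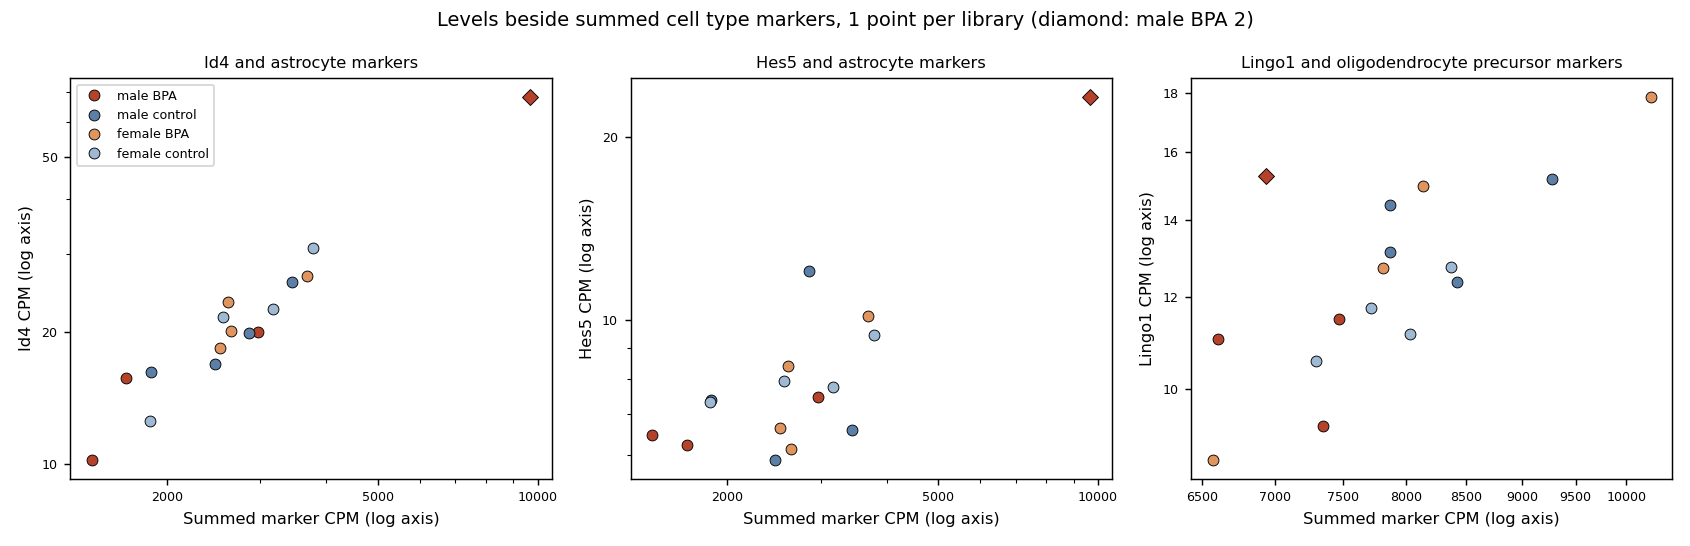
Level of Id4 (left), Hes5 (middle) and Lingo1 (right) in CPM against the summed CPM of a marker list, astrocyte for the first 2 panels and oligodendrocyte precursor for the third, both axes logarithmic, 1 point per library. Id4 climbs with the astrocyte sum from 10.2 CPM to 68.4 CPM across all 4 groups, Hes5 is high chiefly in male BPA 2 (diamond), and Lingo1 is highest and lowest in the 2 exposed females with the highest and lowest precursor sums.

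The rest of the Notch pathway was read from a list of 43 genes, 42 of which passed the filter. By limma-voom 0 of them were called in either direction in males, in females, over both sexes or for the difference, and 4, 6, 6 and 1 had an unadjusted p under 0.05, where 7.96%, 4.55%, 7.69% and 4.72% of all genes did. Of the 43 that passed once male BPA 2 was left out, 0 were called and 4, 7, 8 and 3 had such a p, where 11.1%, 5.75%, 8.33% and 9.29% of all genes did. Their median log2 fold change over both sexes was 0.01, against 0.00 for all genes. In males the median was 0.06, against 0.01 for all genes, and -0.08 without male BPA 2, against -0.01 for all genes. The gene with the smallest p was Cntn1, a contactin on axons and oligodendrocyte-lineage cells that can act as a Notch ligand. It had 524 ± 29.2 CPM in male BPA libraries and 674 ± 58.4 CPM in male controls (SD, n = 4 each). Female means were 568 ± 46.5 CPM with BPA and 644 ± 58.2 CPM in controls. Its log2 fold change was -0.36 ± 0.08 in males (adjusted p = 0.271) and -0.27 ± 0.06 over both sexes (adjusted p = 0.203), and -0.25 without male BPA 2. Dlk2, a non-canonical ligand, gave -0.42 ± 0.12 and Psen2, a presenilin of the gamma-secretase that frees the inner part of Notch, gave -0.28 ± 0.08 over both sexes (adjusted p = 0.368 and 0.334). Psenen, a further part of that enzyme, averaged 1.54 ± 0.57 CPM in female BPA libraries and 2.42 ± 0.36 CPM in female controls, with a difference between the sexes of -0.95 ± 0.31 (adjusted p = 0.999). Cntn6, another contactin, gave a difference between the sexes of 0.84 ± 0.40 (adjusted p = 0.999).

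Of 39 BMP pathway genes 36 passed the filter, 0 were called in any of the 4 comparisons, and 4, 3, 4 and 3 had an unadjusted p under 0.05 in the same order, beside the 7.96%, 4.55%, 7.69% and 4.72% of all genes. Leaving out male BPA 2 gave 0 called and 6, 3, 5 and 3 with such a p, beside 11.1%, 5.75%, 8.33% and 9.29%. The median over both sexes was 0.01, and in males it was 0.02, or -0.09 without male BPA 2. Smurf1, a ubiquitin ligase that marks SMADs for destruction, averaged 282 ± 33.1 CPM in male BPA libraries and 310 ± 26.6 CPM in male controls. Female means were 273 ± 8.07 CPM with BPA and 318 ± 9.75 CPM in controls. Its log2 fold change over both sexes was -0.18 ± 0.05 (adjusted p = 0.378). Smad1, a carrier of the BMP signal, gave 0.22 ± 0.08 and Rgmb, a BMP co-receptor, 0.32 ± 0.12 over both sexes (adjusted p = 0.492 and 0.531). In males Acvr2b, a type II receptor, gave -0.45 ± 0.14 (adjusted p = 0.444). The difference between the sexes was 0.37 ± 0.15 for the ligand Gdf11 and 0.49 ± 0.23 for the ligand Bmp4 (adjusted p = 0.999 each). Bmp4, which is made by newly formed oligodendrocytes themselves, had 79.8 ± 3.35 CPM in male BPA libraries and 95.4 ± 14.4 CPM in male controls. Female means were 111 ± 27.2 CPM with BPA and 92.3 ± 16.3 CPM in controls. Bmp4 is itself 1 of the 15 listed markers of committed and newly formed oligodendrocytes, of which Tmem2 was not found by name. Sums of the 14 found were 7902 to 9840 CPM in male BPA libraries, against 9628 to 11930 CPM in male controls. In females these sums were 8959 to 12627 CPM with BPA, against 9602 to 10804 CPM in controls. Their part in the values of Bmp4 was not tested.

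Of 70 Wnt pathway genes 63 passed the filter, 0 were called, and 5, 2, 4 and 1 had an unadjusted p under 0.05, beside 7.96%, 4.55%, 7.69% and 4.72% of all genes. With male BPA 2 left out 0 were called and the counts were 11, 2, 8 and 5, beside 11.1%, 5.75%, 8.33% and 9.29% of all genes. Their median over both sexes was 0.02, and in males it was 0.01, or -0.13 without male BPA 2, where all genes had -0.01. Tcf7l2, the TCF factor of newly formed oligodendrocytes, had 63.6 ± 3.5 CPM in male BPA libraries and 83.6 ± 6.97 CPM in male controls (log2 fold change -0.39 ± 0.14, adjusted p = 0.496). Its female means were 83.0 ± 21.0 CPM with BPA and 84.4 ± 9.31 CPM in controls. Like Bmp4, Tcf7l2 is on the list of committed and newly formed markers, whose sums in males were 7902 to 9840 CPM with BPA, against 9628 to 11930 CPM in controls, and their part in its values was not tested. Bcl9l, a co-activator of beta-catenin, gave 0.17 ± 0.05 over both sexes, Fzd5, a Wnt receptor, -0.35 ± 0.11, and Tcf7l1, another TCF factor, -0.23 ± 0.08 (adjusted p = 0.377, 0.379 and 0.443). The ligand Wnt3 gave -0.26 ± 0.12 in females, and the difference between the sexes was 0.61 ± 0.34 for the ligand Wnt4 and -0.22 ± 0.12 for the co-repressor Tle3 (adjusted p = 0.999 each). None of these values passed.

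Of 20 names listed for the Lingo1 receptor complex and myelin inhibitors, 19 were found, all but Troy, and 17 passed the filter. Of these 17, 0 were called and 0 were under an unadjusted p of 0.05 in the 4 comparisons, beside 7.96%, 4.55%, 7.69% and 4.72% of all genes. Once male BPA 2 was left out 0 were called and 3, 1, 1 and 3 were under that p, beside 11.1%, 5.75%, 8.33% and 9.29% of all genes. Omg, a myelin glycoprotein that binds the Nogo receptor, had 569 ± 75.2 CPM in male BPA libraries and 496 ± 32.1 CPM in male controls (log2 fold change 0.20 ± 0.10, adjusted p = 0.678). Lingo2, a relative of Lingo1, gave -0.72 ± 0.37 in females (adjusted p = 0.999), Rtn4r, the Nogo receptor, a difference between the sexes of 0.43 ± 0.27, Rhoa, the GTPase below it, -0.08 ± 0.05 in females, and Fez1 0.11 ± 0.10 in males. Of 18 names of bHLH partners and targets of Id and Hes proteins, 17 were found, all but Tle5, and 15 passed the filter. Of these 15, 0 were called, and 1, 1, 2 and 0 were under an unadjusted p of 0.05, beside the same 7.96%, 4.55%, 7.69% and 4.72%. Of 16 that passed without male BPA 2, 0 were called and 2, 3, 3 and 2 were under it, beside 11.1%, 5.75%, 8.33% and 9.29%. Olig2, the lineage factor that Id proteins can hold, had 560 ± 74.3 CPM in male BPA libraries and 627 ± 55.8 CPM in male controls. Female means were 495 ± 52.2 CPM with BPA and 558 ± 16.6 CPM in controls. Its log2 fold change over both sexes was -0.17 ± 0.07 (adjusted p = 0.540), beside -0.13 ± 0.06 for its relative Olig1 (adjusted p = 0.631). The proneural factor Neurog2 gave -0.66 ± 0.32 over both sexes (adjusted p = 0.667), Hes6, which counters Hes1, -0.21 ± 0.09 in females (adjusted p = 0.999), and the Groucho co-repressors Tle1 0.17 ± 0.07 in males (adjusted p = 0.528) and Tle2 0.29 ± 0.15 for the difference between the sexes (adjusted p = 0.999).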

How the data were processed

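RNA of O4+ brain cells was sequenced in 16 libraries, 4 in each group of sex and exposure. The kit keeps strand and selects poly(A) RNA, with 100 ng as input, per the labels. The submitters' processing notes name DESeq2 1.16.1, HTSeq 0.6.1p1, STAR 2.5.3a, bcl2fastq 2.20.0.422 and the build mm39. The deposited table holds, per the file headers, raw counts, normalised counts and normalised counts per kb of median transcript length. The first and the last were used, and 16 columns of normalised values were not. Its layout kept the automated check of units from reading single columns, so the counts were judged from their values, all whole numbers, and a count model was not used. limma-voom (limma 3.58.1, R 4.3.3), listed as the fallback, took the place of a quasi-likelihood count test.

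Libraries were scaled by a re-implementation of TMM, and genes kept with a count of at least 10 in enough libraries and 15 in total (16339 of 32207). All 16 libraries were fitted with 1 coefficient per group and robust empirical Bayes. P-values are two-sided, Benjamini-Hochberg adjusted over all genes, with a threshold of 0.05. The procedure was tested on simulated data, where median fold changes were recovered but a few of the changed genes took the wrong sign. Correlations used log2 CPM (prior count 2), 100000 permutations within groups, and 20000 without 2 libraries. Symbols came from GENCODE M21 for 31717 genes. Counting error alone is covered by limits drawn from counts.

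Named genes are the 10 genes; of each pathway list, called genes or otherwise those with the smallest p (up to 3 over both sexes, 2 in each other comparison of BPA) at a mean of at least 1 CPM; and for each gene the 2 most alike in r. Some genes that this rule gives are not reported here. The genes and lists were chosen with earlier results of these data known. The replicate numbers showed no clear pairing of the libraries.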

Additional observations from a re-analysis of the deposited data

Results flagged for a closer look

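In the 4 male BPA libraries the highest value stood apart from the nearest other by more than Dixon's critical gap for 5 of the 10 genes, out of 40 groups of 4 looked at; chance alone sets apart about 1 group in 20. The values were 19.3 CPM for Id1, 66.4 CPM for Id3, 68.4 CPM for Id4, 9.33 CPM for Hes1 and 23.3 CPM for Hes5, where the other 15 libraries reached at most 9.90, 31.5, 31.0, 5.28 and 12.05 CPM. All 5 come from 1 library, male BPA 2, and these genes varied together, so the 5 flags are not independent. That library differed across all genes, with a chi-square per gene of 89.0 to 133 in its pairs, against 16.5 to 33.2 in the others. The share of all genes set apart in this way was not counted, so the flags cannot be read as particular to these genes. The same library held 9674 CPM of astrocyte markers, against at most 3780 CPM elsewhere; their part in these values was not tested.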

How the results depend on the processing

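The direct fits with edgeR and DESeq2 were not run, for the reason given with the methods. None of the 10 genes passed an adjusted p of 0.05 under any alternative run. The number of genes called among all tested was small and moved with the settings. It was 1 in males in the reported fit, 2 with no low-count filter and 4 with males alone in the fit. In females it was 0 by limma-voom, with 744 genes at an unadjusted p under 0.05, 2 with no low-count filter and 1 with females alone. Over both sexes it was 3, and 0 with a mean of at least 1 CPM required or with the replicate block. Leaving out libraries gave 0 to 3 calls in males (3 without female control 4 and 0 without any other), 0 in females, 0 to 5 over both sexes (5 without female control 4, 4 without male BPA 2, 3 without female BPA 3, female BPA 4 or female control 3, 1 without male control 2 and 0 without any other), 0 to 3 for the difference (3 without female control 4) and 9 to 14 for females against males. The replicate numbers showed no clear pairing of the libraries. For 16 pairs of libraries with the same number the correlations of their deviations ran from -0.13 to 0.23, and 6 were over 0.1. Of 16 libraries, 4 went best with their own number. With 4 libraries per group, this cannot exclude a weak pairing.

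The sign of many differences turned when a library was left out, and the log2 fold changes below, none of them called, are given as the range over every single library left out and over male BPA 2 with female BPA 1. In males it ran from -0.14 to 0.69 for Id1, -0.22 to 0.57 for Id2, -0.39 to 0.61 for Id4, -0.10 to 0.49 for Hes1, -0.21 to 0.54 for Hes5 and -0.10 to 0.19 for Jag1. In females the ranges were -0.14 to 0.31 for Id1, -0.21 to 0.13 for Id3, -0.15 to 0.30 for Id4, -0.20 to 0.087 for Hes5, -0.051 to 0.15 for Jag1 and -0.11 to 0.10 for Axin2. Over both sexes they were -0.010 to 0.40 for Id1, -0.013 to 0.35 for Id3, -0.15 to 0.35 for Id4, -0.13 to 0.25 for Hes5, -0.019 to 0.13 for Jag1 and -0.094 to 0.074 for Lingo1. For the difference between the sexes they were -0.56 to 0.32 for Id1, -0.31 to 0.48 for Id2, -0.75 to 0.026 for Id3, -0.51 to 0.54 for Id4, -0.31 to 0.27 for Hes1, -0.58 to 0.29 for Hes5, -0.061 to 0.14 for Notch1 and -0.14 to 0.17 for Jag1. For females against males they were -0.069 to 0.37 for Id1, -0.16 to 0.24 for Id2, -0.11 to 0.28 for Id3, -0.13 to 0.40 for Id4, -0.11 to 0.18 for Hes1, -0.22 to 0.20 for Hes5, -0.074 to 0.071 for Jag1 and -0.093 to 0.049 for Lingo1. The male turns, and those over both sexes other than of Lingo1, came without male BPA 2. The cause of these turns was not tested. Other settings turned values near 0: Lingo1 over both sexes was 0.0014 with median-of-ratios scaling and 0.00091 with the replicate block, the difference between the sexes was 0.0049 for Notch1 with that scaling and -0.010 for Id2 with no low-count filter, and females against males was -0.0068 for Id2 with no filter, and -0.0065 for Id2, -0.038 for Id3 and -0.026 for Id4 with the replicate block. Of 100 gene and marker list pairs 10 passed, and 1 without the 2 libraries farthest from the median of the list. On the strand of the gene alone GTGGGAA was in 2.73% and CTTTGAT in 1.65% of windows. Groups of 4 limit what can be seen: the 95% intervals of the Id genes in males span more than 1 log2 unit.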
